A study of Homo sapiens with 12 samples.

Results

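The aldo-keto reductases and aldehyde dehydrogenases described here are 10 genes, picked by symbol and read in all 12 libraries: AKR1B1, AKR1B10, AKR1C1, AKR1C2, AKR1C3, ALDH1A1, ALDH1A3, ALDH2, ALDH3A1 and ALDH3A2. They are 10 of the 26334 annotated genes of the count tables, and all 10 passed the filter on low counts that kept 15352 genes for testing. The 10 genes and the related lists were chosen with earlier results of these data known. Counts set against all genes below therefore describe them and are no test of the families. The study asked how loss of RNF113A, a spliceosome subunit, changes the response of lung cancer cells to Cisplatin, a DNA-damaging platinum drug. All libraries came from A549 cells, a human lung adenocarcinoma line, infected with a lentivirus and selected with puromycin at 1 µg/ml for 4 days. In shControl cells the virus carried a non-targeting shRNA and in shRNF113A cells it targeted RNF113A, and both were kept untreated or received Cisplatin, at 25 µg/ml for 20 h by the sample labels. This gave 4 conditions (shControl untreated, shControl with Cisplatin, shRNF113A untreated, shRNF113A with Cisplatin) with 3 biological replicates each, and every condition shared the infection and the selection. The labels do not say which construct against RNF113A these libraries carried, so effects of a construct and of the depletion cannot be told apart here.

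Aldo-keto reductases are cytosolic enzymes that use NADPH to reduce aldehydes and ketones to alcohols. The AKR1B members act on glucose, retinal and lipid aldehydes, and the AKR1C members act on steroids, prostaglandins and drug carbonyls. Aldehyde dehydrogenases do the opposite chemistry and oxidise aldehydes to acids with NAD or NADP. ALDH1A members make retinoic acid, ALDH3A members clear fatty and aromatic aldehydes, and ALDH2 is the mitochondrial enzyme of ethanol metabolism. Many AKR genes and ALDH3A1 are known targets of the transcription factor NRF2, the product of NFE2L2, and A549 cells carry an inactive form of its inhibitor KEAP1, which keeps this programme high. ALDH1A1 is widely used as a marker of stem-like tumour cells.

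The AKR1C genes are near-copies of each other on chromosome 10, which bears on how far their counts can be told apart. The coding sequences of AKR1C1 and AKR1C2 were 98.0% identical, with 19 of 969 bases different, and their longest identical stretch was 186 bases. AKR1C3 was 91.4% identical to AKR1C1 and 91.0% to AKR1C2. The stretch below, coding bases 103 to 162, holds 10 of the 19 differences between AKR1C1 and AKR1C2. It was read from Gencode transcript sequences with positions on GRCh37, and capitals mark in all 3 genes the positions at which AKR1C1 and AKR1C2 differ.
AKR1C1 (chr10:5008124-5008183, plus strand): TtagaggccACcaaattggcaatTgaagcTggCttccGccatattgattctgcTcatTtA
AKR1C2 (chr10:5043796-5043855, minus strand): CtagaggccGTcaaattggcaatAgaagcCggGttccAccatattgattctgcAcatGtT
AKR1C3 (chr10:5138620-5138679, plus strand): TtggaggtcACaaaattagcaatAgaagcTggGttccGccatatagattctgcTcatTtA
Over this stretch AKR1C3 differed from AKR1C1 at 7 positions and from AKR1C2 at 13. Reads were trimmed to 73 bases. Of all windows of 73 coding bases, 36.8% of those in AKR1C1, 42.0% in AKR1C2 and 15.9% in AKR1C3 also occurred in another gene. In AKR1B10 the share was 14.0%, matching AKR1B15 and a pseudogene of AKR1B10. In ALDH2 it was 41.3%, where every match was to a readthrough gene annotated at the same place in a newer annotation. AKR1B1, ALDH1A1, ALDH1A3, ALDH3A1 and ALDH3A2 had none. Pairs that aligned to several places were 3.51% to 3.83% of each library and were not counted on any gene. The counts of AKR1C1, AKR1C2, AKR1C3 and AKR1B10 therefore come from pairs that could be placed, and their values are uncertain. The window shares cover single coding stretches and leave out mates and untranslated ends. They do not measure the size of that uncertainty.

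RNF113A itself was checked first. In untreated cells its level was 20.3, 19.5 and 19.8 CPM (counts per 1e+06 counted pairs, scaled by TMM) in shControl replicates 1 to 3, and 15.3, 15.8 and 16.8 CPM in shRNF113A cells. The groups did not overlap, and the log2 fold change was −0.31 (SE 0.09, adjusted p = 0.0247, edgeR quasi-likelihood test with Benjamini-Hochberg adjustment, as for all adjusted p-values of expression here). That call was lost without shControl untreated replicate 1 or 3 or shRNF113A untreated replicate 1 or 2, with adjusted p up to 0.0940. With Cisplatin the levels were 31.5, 28.9 and 27.7 CPM in shControl cells and 25.8, 24.3 and 29.9 CPM in shRNF113A cells, which overlapped (log2 fold change −0.14, SE 0.09, adjusted p = 0.233). The mRNA of the targeted gene was therefore only slightly lower in the cells labelled shRNF113A. The study assessed RNF113A protein by western blot in control and depleted A549 cells, which these counts do not measure.

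The libraries held 33859097 to 56071514 read pairs, of which 26220526 to 45721152 were counted on genes, and counts per member and library ran from 1035 (ALDH1A3) to 354432 (ALDH1A1). The CPM of cell type markers and their sums were scaled to library size, without TMM. Of the epithelial markers, KRT8 and KRT18 were high in every library (2042 to 7300 CPM and 1479 to 6311 CPM). KRT19 and CLDN4 stayed under 6 CPM. The summed level of 6 epithelial markers was 7216 to 12010 CPM in shControl and 12529 to 13832 CPM in shRNF113A cells without Cisplatin, and 3587 to 5194 CPM and 5412 to 6020 CPM with it. In the model with both terms 3 of the 6 rose at least 2-fold upon depletion, and 3 fell and 1 rose as much with Cisplatin. The part of these markers in the results on either was not tested. None of 4 endothelial markers reached 1 CPM. Of 6 fibroblast markers COL1A1 ran from 3.21 to 35.05 CPM and LUM from 0.15 to 2.61 CPM, while the other 4, COL1A2 and DCN among them, stayed under 1 CPM. Their sum was 5.70 to 36.6 CPM in untreated shControl cells and 6.27 to 15.9 CPM in the other conditions. Of 5 leukocyte markers CD68 and CD14 were above 1 CPM in every library and PTPRC stayed under 0.2 CPM. Their sum was 28.4 to 41.7 CPM in untreated shControl, 32.7 to 33.7 CPM in Cisplatin-treated shControl, 45.4 to 47.9 CPM in untreated shRNF113A and 60.9 to 78.3 CPM in Cisplatin-treated shRNF113A cells, and its part in the results was not tested either. The libraries numbered 2 of shControl cells stood apart from the others of their condition in both treatments: their mean absolute deviation over 9779 genes was 0.188 and 0.16 on the log2 scale, against 0.0466 to 0.118 in the other 10 libraries. Expression values without both libraries, an alternative chosen after seeing the data, are given where they change a call or move a called value named here by over 1.5 times, and also for AKR1B10, ALDH3A1 and ALDH3A2.

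Depletion of RNF113A lowered most of the 10 genes, and Cisplatin moved them in both directions. In the model with both terms, Cisplatin raised ALDH3A1 and ALDH1A3 and lowered AKR1C2, AKR1C3, ALDH1A1 and ALDH3A2 at an adjusted p under 0.05 and by 2-fold or more. This was 6 of 10 genes, against 21.5% of the 15352 genes tested, with 2 of 10 higher (10.3% of all genes) and 4 of 10 lower (11.2%). Without the fold limit 7 of 10 passed, a share near the 66.8% of all genes, 2 of them higher (34.8%) and 5 lower (32.1%). With a replicate block within each shRNA, chosen after seeing the data, AKR1B10 (−0.20, adjusted p = 0.0053) and ALDH2 (−0.21, adjusted p = 0.0339) passed as well. ALDH1A3 was under 2-fold without the shControl libraries numbered 2 (0.94). The median log2 fold change of the 10 genes was −0.42, against 0.03 over all genes. Upon depletion, AKR1C1, AKR1B10, AKR1C2 and AKR1C3 fell at least 2-fold and none rose as much, 4 of 10 against 11.0% of all genes, of which 5.52% were lower and 5.47% higher. Without the fold limit 8 of 10 fell (24.0% of all genes) and 1 of 10 rose (23.5%), 9 of 10 in all (47.5%), and the median was −0.69, against −0.0018 over all genes.

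**Figure D1:**
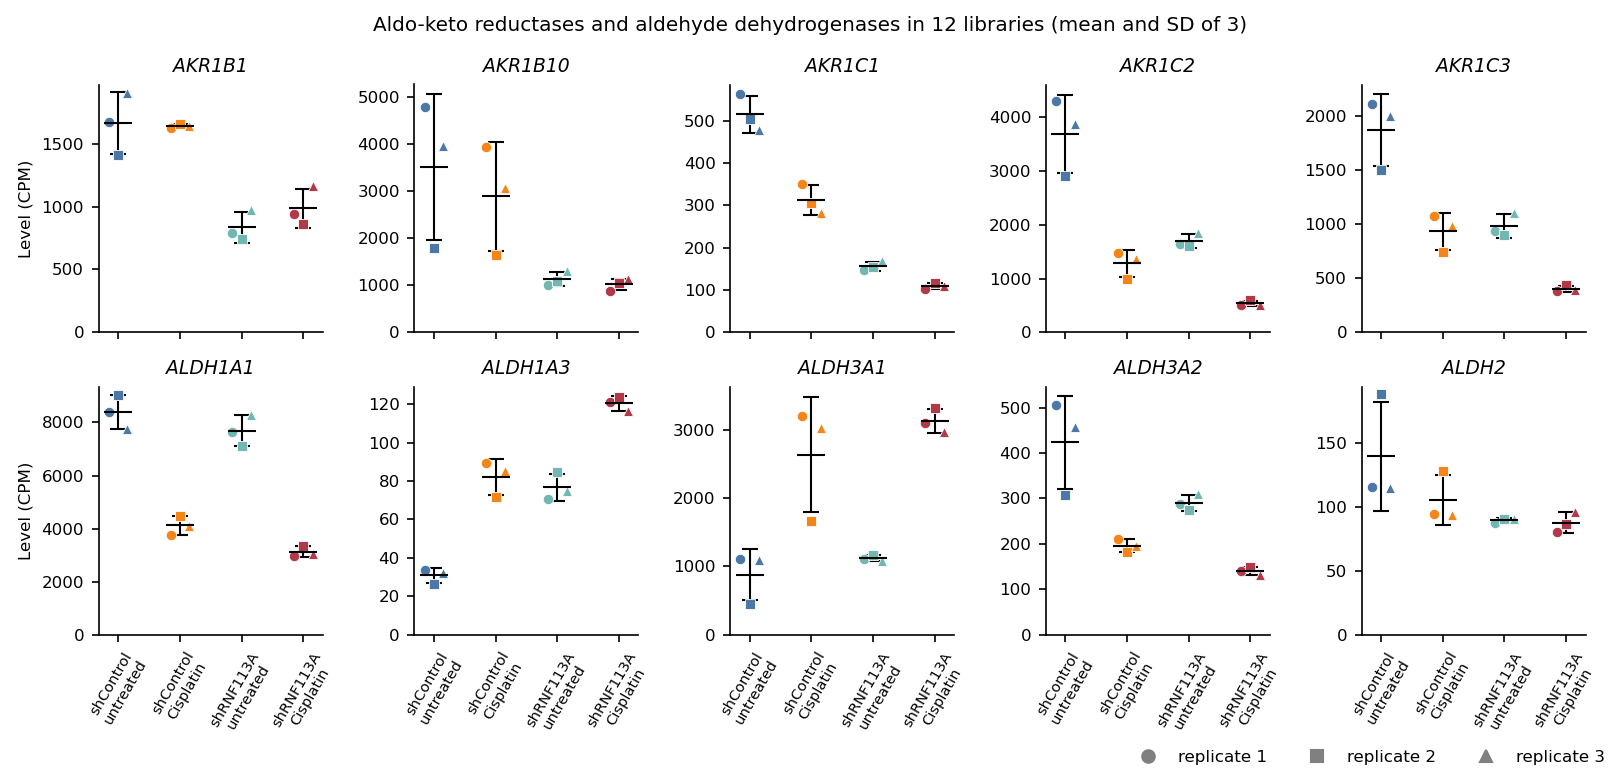
Level in CPM (y axis, from 0, a separate scale for each gene) of the 10 genes in the 4 conditions (x axis); points are libraries with the shape giving the replicate, and bars are the mean and SD of 3. The AKR genes were lower in both groups of shRNF113A cells than in the matching shControl cells, while ALDH1A3 was lowest in untreated shControl cells at a mean of 30.8 CPM.

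CPM are not divided by transcript length, so levels are compared between conditions and never between genes. Because cells were lysed in bulk, fewer cells expressing a gene and less of its RNA per cell cannot be told apart.

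Both AKR1B genes were lower in depleted cells and changed little with Cisplatin. AKR1B1, the aldose reductase that turns glucose into sorbitol (chr7:134127102-134144036, minus strand, GRCh37), had 1676, 1409.8 and 1904 CPM in untreated shControl cells and 1621, 1658 and 1643 CPM with Cisplatin. The shRNF113A libraries had 793, 740.5 and 974 CPM untreated and 939, 860.4 and 1161 CPM with Cisplatin. Every shRNF113A library was below every shControl library, and the log2 fold change upon depletion was −0.99 (SE 0.14, adjusted p = 3.1e-04) in untreated cells and −0.73 (SE 0.14, adjusted p = 0.0013) with Cisplatin. Cisplatin changed it by −0.02 in shControl cells (SE 0.14, adjusted p = 0.914) and by 0.24 in shRNF113A cells (SE 0.14, adjusted p = 0.149). The last value passed with a replicate block (adjusted p = 0.0414), with a block within each shRNA (adjusted p = 0.0113) and with scaling to library size (0.33, adjusted p = 0.0336).

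AKR1B10, a reductase of retinal and of long-chain aldehydes that is low in normal lung and high in smokers' lung cancers (chr7:134212344-134226160, plus strand), showed the widest spread. It had 4782, 1784 and 3946 CPM in untreated shControl cells and 3937, 1651 and 3065 CPM with Cisplatin. Among shRNF113A libraries it had 1011, 1093 and 1303 CPM untreated and 885, 1043 and 1127 CPM with Cisplatin. Replicate 2 was the lowest shControl library in both treatments, yet all shControl libraries lay above all shRNF113A libraries. Depletion lowered it with a log2 fold change of −1.63 (SE 0.34, adjusted p = 0.0041) in untreated and −1.502 (SE 0.34, adjusted p = 0.0039) in Cisplatin-treated cells. Without the shControl libraries numbered 2 these were −1.94 and −1.78. Cisplatin changed it by −0.28 in shControl cells (SE 0.33, adjusted p = 0.493) and by −0.16 in shRNF113A cells (SE 0.33, adjusted p = 0.698). In shControl cells libraries of the same number deviated together across treatments, though the main tests had no block. With a block within each shRNA the same small differences of −0.25 and −0.16 passed (adjusted p = 0.0035 and 0.0468). With a single block for all libraries the value in shControl cells did not (adjusted p = 0.416).

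The AKR1C genes fell with depletion, with Cisplatin, and further with both. AKR1C1, which inactivates progesterone (chr10:4934796-5025475, plus strand), had 562, 505 and 477 CPM in untreated shControl cells and 350.1, 306 and 281 CPM with Cisplatin. Upon depletion it had 147, 155 and 168 CPM untreated and 102, 117 and 109 CPM with Cisplatin. The 4 conditions did not overlap, and the mean was 4.71 times higher in untreated shControl cells than in Cisplatin-treated shRNF113A cells. Depletion had the larger part, with log2 fold changes of −1.72 (SE 0.10, adjusted p = 6.7e-07) and −1.51 (SE 0.10, adjusted p = 1.3e-06) in untreated and Cisplatin-treated cells. Cisplatin lowered it with a log2 fold change of −0.72 (SE 0.10, adjusted p = 5.3e-05) and −0.52 (SE 0.10, adjusted p = 6.0e-04) in shControl and shRNF113A cells, less than 2-fold in either.

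AKR1C2, the bile acid-binding member that inactivates dihydrotestosterone (chr10:5029967-5060223, minus strand), spanned the widest range of the 10 genes. Its levels were 4311, 2903 and 3868 CPM in untreated shControl cells, and 1482, 998 and 1364 CPM with Cisplatin. In shRNF113A cells they were 1648, 1599 and 1840.1 CPM untreated, and 513, 599 and 501 CPM with Cisplatin. No 2 conditions overlapped, and the highest mean was 6.87 times the lowest. Cisplatin lowered it with a log2 fold change of −1.53 (SE 0.16, adjusted p = 7.8e-06) in shControl cells and −1.66 (SE 0.16, adjusted p = 3.5e-06) in shRNF113A cells, and depletion did so with one of −1.12 (SE 0.16, adjusted p = 3.9e-04) and −1.25 (SE 0.16, adjusted p = 1.3e-04) in untreated and Cisplatin-treated cells.

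AKR1C3, which reduces prostaglandin and androgen precursors (chr10:5077546-5149878, plus strand), followed AKR1C2 closely. It had 2114, 1496 and 2001 CPM in untreated shControl cells, then 1076, 740.2 and 984 CPM with Cisplatin. The depleted cells had 941, 896 and 1105 CPM untreated and 386, 435 and 389 CPM with Cisplatin. Untreated shRNF113A and Cisplatin-treated shControl cells overlapped, and all other pairs of conditions were apart. Cisplatin lowered it with a log2 fold change of −1.003 (SE 0.15, adjusted p = 1.4e-04) and −1.28 (SE 0.15, adjusted p = 1.8e-05) in shControl and shRNF113A cells. Depletion lowered it with a log2 fold change of −0.93 (SE 0.15, adjusted p = 9.5e-04) in untreated and −1.21 (SE 0.15, adjusted p = 1.2e-04) in Cisplatin-treated cells. AKR1C3 was among the 20 genes nearest to AKR1C2 over the 12 libraries and the reverse, by the root mean square difference of their centred log2 CPM; these share sequence, libraries and depth.

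The ALDH1A genes, which oxidise retinal to retinoic acid, went opposite ways. ALDH1A1 (chr9:75515578-75695358, minus strand) had 8409, 9029.7 and 7743 CPM in untreated shControl cells and 3769, 4489 and 4109.6 CPM with Cisplatin. Depleted cells had 7661, 7127 and 8284 CPM untreated and 2978, 3353 and 3054 CPM with Cisplatin. The untreated libraries of both shRNAs overlapped, and every Cisplatin library was below them. Cisplatin lowered it with a log2 fold change of −1.03 (SE 0.10, adjusted p = 2.8e-06) in shControl cells and −1.30 (SE 0.10, adjusted p = 3.8e-07) in shRNF113A cells. Depletion changed it by −0.13 in untreated cells (SE 0.10, adjusted p = 0.359) and lowered it with a log2 fold change of −0.40 with Cisplatin (SE 0.10, adjusted p = 0.0061), and the difference between these effects did not pass (interaction −0.27, SE 0.14, adjusted p = 0.276).

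ALDH1A3 (chr15:101417919-101456831, plus strand) was the least counted of the 10 genes and the one that rose under both changes. It had 33.9, 26.4 and 32.3 CPM in untreated shControl cells and 89.4, 71.8 and 85.3 CPM with Cisplatin. Levels in shRNF113A cells were 70.8, 84.6 and 75.03 CPM untreated and 121, 124 and 116 CPM with Cisplatin. Untreated shControl libraries were the lowest and Cisplatin-treated shRNF113A libraries the highest, and the remaining conditions overlapped. Cisplatin raised it by a log2 fold change of 1.41 (SE 0.11, adjusted p = 5.6e-07) in shControl cells and 0.65 (SE 0.11, adjusted p = 2.5e-04) in shRNF113A cells. Depletion raised it by 1.32 (SE 0.11, adjusted p = 7.8e-06) in untreated cells and 0.55 (SE 0.11, adjusted p = 0.0017) with Cisplatin. The combined level was below the product of the separate changes, with an interaction of −0.76 (SE 0.15, adjusted p = 0.0206).

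ALDH1A3 was the only one of the 10 genes with an interaction at an adjusted p under 0.05, against 4.25% of all genes. None of the 10 had one of at least 2-fold, against 1.28% of all genes. With a replicate block within each shRNA the interaction of ALDH2 passed too (0.34, adjusted p = 0.0384), against 0.37 and adjusted p = 0.432 without a block. In edgeR and in DESeq2 alike 1 of the 10 passed without the fold limit, and in edgeR 1 had an unadjusted p under 0.05. No share of all genes was taken for the DESeq2 count or the unadjusted count. The ALDH1A3 interaction lost its call without shRNF113A untreated replicate 2 (adjusted p = 0.0528) or Cisplatin-treated replicate 3 (adjusted p = 0.0625).

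The ALDH3A genes lie near each other on chromosome 17 and also went opposite ways with Cisplatin. ALDH3A1, a cytosolic enzyme of aromatic and medium-chain aldehydes known from the cornea (chr17:19641297-19652256, minus strand), had 1103, 444 and 1090.2 CPM in untreated shControl cells and 3208, 1668 and 3026 CPM with Cisplatin. The levels in shRNF113A cells were 1114, 1174 and 1084 CPM untreated and 3105, 3315 and 2961 CPM with Cisplatin. All Cisplatin libraries exceeded all untreated ones. The log2 fold change with Cisplatin was 1.58 (SE 0.30, adjusted p = 7.6e-04) in shControl and 1.48 (SE 0.30, adjusted p = 0.0011) in shRNF113A cells. Replicate 2 was the lowest shControl library in both treatments, as for AKR1B10. Depletion changed ALDH3A1 by 0.35 in untreated cells (SE 0.30, adjusted p = 0.401) and 0.25 with Cisplatin (SE 0.30, adjusted p = 0.521), and by 0.03 and 0.0024 without the shControl libraries numbered 2. The 95% intervals with all libraries ran from −0.23 to 0.93 and from −0.33 to 0.83.

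ALDH3A2, the fatty aldehyde dehydrogenase of the endoplasmic reticulum that is lost in Sjögren-Larsson syndrome (chr17:19551449-19580911, plus strand), fell with both. It had 505, 308 and 457 CPM in untreated shControl cells and 210.4, 182 and 196 CPM with Cisplatin. In shRNF113A cells it had 289, 274 and 309 CPM untreated and 141, 149.8 and 131 CPM with Cisplatin. The untreated groups overlapped, because replicate 2 of shControl cells was low, and the Cisplatin groups did not. Cisplatin lowered it with a log2 fold change of −1.11 (SE 0.15, adjusted p = 4.2e-05) and −1.05 (SE 0.15, adjusted p = 5.7e-05) in shControl and shRNF113A cells. In untreated cells depletion lowered it (log2 fold change −0.54, SE 0.14, adjusted p = 0.0154), a call lost without shControl untreated replicate 1 (adjusted p = 0.0641) or 3 (0.0528) or shRNF113A untreated replicate 2 (0.0670). Without the shControl libraries numbered 2 it was −0.73 (adjusted p = 1.5e-06). With Cisplatin the value was −0.48 (SE 0.14, adjusted p = 0.0189), lost without shRNF113A replicate 3 (adjusted p = 0.0746).

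ALDH2 (chr12:112204691-112247782, plus strand) varied least. It had 115, 188 and 115 CPM in untreated shControl cells and 94.4, 128 and 93.7 CPM with Cisplatin. Upon depletion levels were 87.2, 90.8 and 90.4 CPM untreated and 80.3, 86.4 and 96.2 CPM with Cisplatin. Its highest mean was 1.59 times its lowest, and replicate 2 was the highest shControl library in both treatments. In untreated cells depletion lowered it (log2 fold change −0.64, SE 0.18, adjusted p = 0.0197), a call lost without any 1 of the 3 untreated shRNF113A libraries (adjusted p = 0.0545 to 0.0624). The value without the shControl libraries numbered 2 was −0.36. With Cisplatin depletion changed it by −0.27 (SE 0.18, adjusted p = 0.245). Cisplatin changed it by −0.40 in shControl cells (SE 0.18, adjusted p = 0.0730), which passed with a replicate block (−0.39, adjusted p = 0.0325), with a block within each shRNA (−0.38, adjusted p = 3.9e-04) and without the shControl libraries numbered 2 (−0.29, adjusted p = 0.0048). In shRNF113A cells the value was −0.03 (SE 0.18, adjusted p = 0.896).

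**Figure D2:**
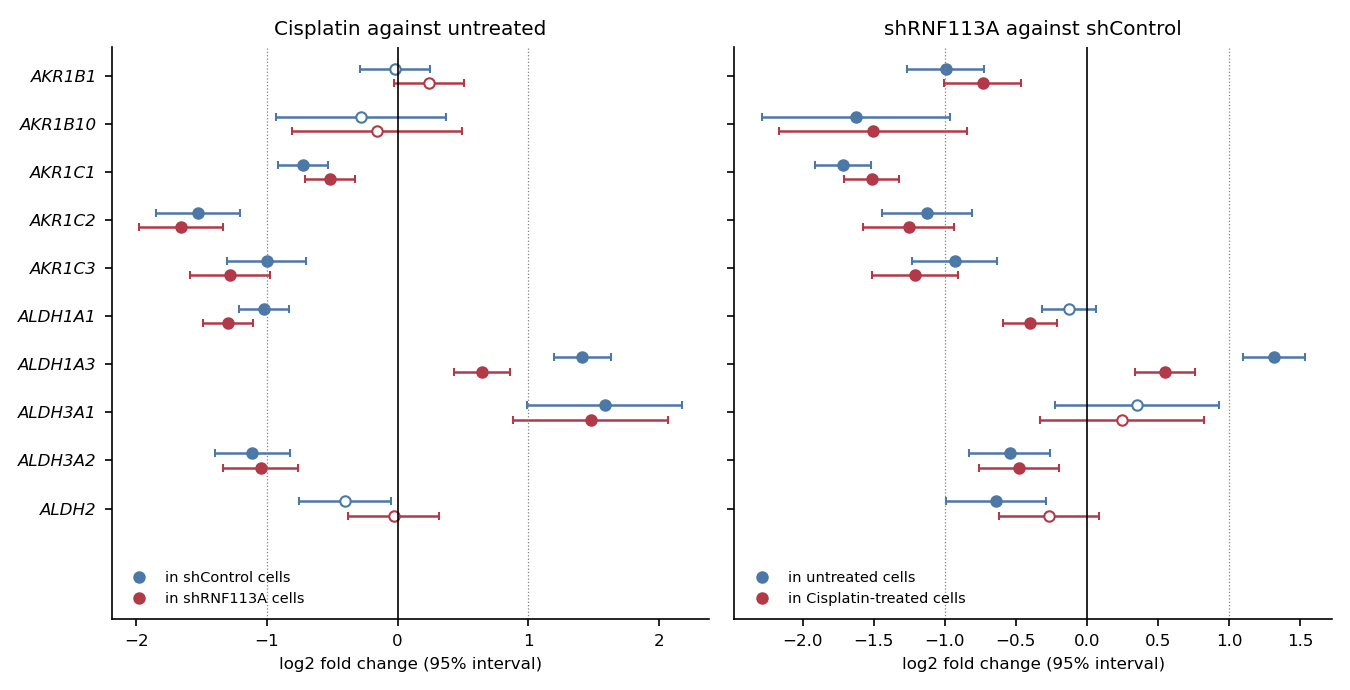
log2 fold changes (x axis) of the 10 genes (y axis) for Cisplatin against untreated cells and for shRNF113A against shControl cells. Each comparison is shown within 2 groups of cells. Bars, labelled as 95% intervals, span 1.96 standard errors on either side and are narrower than 95% intervals of the test. Filled points have an adjusted p under 0.05, and dotted lines mark a 2-fold change. AKR1B1 and AKR1B10 are open points for Cisplatin and filled for depletion, ALDH3A1 is the reverse, and the intervals of ALDH1A3 in its paired groups do not touch.

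Within single conditions, Cisplatin moved 6 of 10 genes at least 2-fold in shControl cells (19.8% of all genes) and 5 of 10 in shRNF113A cells (23.1%), where ALDH1A3 was called in shControl cells only and AKR1C2, AKR1C3, ALDH1A1, ALDH3A1 and ALDH3A2 in both. Depletion moved 4 of 10 in untreated cells (8.66% of all genes) and 4 of 10 in Cisplatin-treated cells (12.3%). AKR1B10, AKR1C1 and AKR1C2 were in both, ALDH1A3 in the untreated and AKR1C3 in the Cisplatin-treated comparison. Without the shControl libraries numbered 2, AKR1C3 was just under 2-fold with Cisplatin in shControl cells (−0.998). In the same fit AKR1B1 (−1.0996) and AKR1C3 (−1.07) passed 2-fold upon depletion in untreated cells. The shares of all genes above are from the fit with all 12 libraries. The libraries of the groups compared did not overlap for 7 of 10 genes with Cisplatin in shControl cells (56.1% of all genes) and 7 of 10 in shRNF113A cells (74.2%). Upon depletion the groups stayed apart for 7 of 10 in untreated (43.3%) and 8 of 10 in Cisplatin-treated cells (57.7%). The comparisons share libraries and are given side by side for that reason. Together the 10 genes took 2.02% ± 0.19 (SD, n = 3) of counted pairs in untreated shControl cells, 1.46% ± 0.18 with Cisplatin, 1.37% ± 0.09 in untreated shRNF113A cells and 1.00% ± 0.05 with both.

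Genes of related function were read for comparison. In the lists below, genes counted as rising or falling passed an adjusted p under 0.05, with no fold limit unless 2-fold is stated. NFE2L2, which encodes NRF2, had 145, 107 and 127 CPM in untreated shControl, 136, 125 and 128 CPM in Cisplatin-treated shControl, 116, 102 and 107 CPM in untreated shRNF113A and 98.0, 100.2 and 84.6 CPM in Cisplatin-treated shRNF113A cells. In the model with both terms depletion lowered it with a log2 fold change of −0.34 (SE 0.08, adjusted p = 0.0038) and its change with Cisplatin was −0.08 (SE 0.08, adjusted p = 0.405). KEAP1, its inhibitor, rose by 0.29 with Cisplatin (SE 0.06, adjusted p = 4.9e-04), and its change upon depletion was −0.02 (SE 0.06, adjusted p = 0.821).

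Of 25 other NRF2 targets, 20 fell with Cisplatin (32.1% of all genes) and 2 rose, with a median log2 fold change of −0.61. Upon depletion 16 fell (24.0% of all genes) and none rose, with a median of −0.29. TKT, the transketolase of the pentose phosphate pathway, fell with Cisplatin with a log2 fold change of −1.38 (SE 0.08, adjusted p = 1.0e-08) and PIR, an iron-binding nuclear protein, with one of −1.35 (SE 0.10, adjusted p = 8.2e-08). No NRF2 target of this list changed 2-fold upon depletion, while 4 of the 5 AKR genes did (11.0% of all genes). Many AKR genes are themselves known NRF2 targets, so this contrast depends on how genes were sorted into lists. Whether NRF2 had a part in the fall of the AKR genes was not tested. Of 7 NRF2 regulators 4 rose (34.8% of all genes) and 1 fell (32.1%) with Cisplatin. MAFF, a small MAF partner of NRF2, rose by 2.15 (SE 0.18, adjusted p = 1.9e-07). Upon depletion 3 rose (23.5% of all genes) and 2 fell (24.0%).

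Further members of both families were read in the same way. Of 9 other aldo-keto reductases tested, 3 fell (32.1% of all genes) and none rose with Cisplatin, and 4 fell (24.0%) and 3 rose (23.5%) upon depletion. In Cisplatin-treated cells 5 of the 9 changed at least 2-fold upon depletion (12.3% of all genes), 3 of them higher and 2 lower. KCNAB2, a potassium channel beta subunit with an aldo-keto reductase fold, fell upon depletion with a log2 fold change of −1.53 (SE 0.18, adjusted p = 2.5e-05). Of 12 other aldehyde dehydrogenases tested, 3 fell (32.1% of all genes) and 1 rose (34.8%) with Cisplatin. Upon depletion 4 fell (24.0%) and 2 rose (23.5%). In Cisplatin-treated cells 2 of the 12 changed at least 2-fold upon depletion (12.3%), 1 higher and 1 lower. ALDH1L2, the mitochondrial formyltetrahydrofolate dehydrogenase, fell upon depletion with a log2 fold change of −1.09 (SE 0.20, adjusted p = 6.3e-04). AKR1D1, KCNAB1, ALDH1A2 and ALDH3B2 did not pass the filter on low counts.

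Of 22 genes of retinoid metabolism, the pathway of the ALDH1A enzymes, 6 rose (34.8% of all genes) and 4 fell (32.1%) with Cisplatin. Upon depletion 3 rose (23.5% of all genes) and 8 fell (24.0%). RETSAT, which saturates retinol, rose with Cisplatin by 2.79 (SE 0.11, adjusted p = 2.1e-10), from 74.7 CPM ± 4.11 to 636 ± 65.3 (SD, n = 3) in shControl cells and from 93.0 ± 1.85 to 522 ± 57.7 in shRNF113A cells. RARB, a retinoic acid receptor whose gene is induced by retinoic acid, fell with Cisplatin at a log2 fold change of −2.001 (SE 0.22, adjusted p = 2.3e-06) and of −1.52 upon depletion (SE 0.21, adjusted p = 1.0e-04). DHRS3, which turns retinal back into retinol, fell with Cisplatin at a log2 fold change of −1.26 (SE 0.11, adjusted p = 2.7e-07).

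Of 17 other enzymes of carbonyl compounds tested, 4 rose (34.8% of all genes) and 8 fell (32.1%) with Cisplatin. Upon depletion none rose (23.5% of all genes) and 9 fell (24.0%). PTGR1, a reductase of unsaturated aldehydes and leukotrienes, fell upon depletion with a log2 fold change of −1.23 (SE 0.11, adjusted p = 2.0e-06). HSD17B11, a steroid dehydrogenase of lipid droplets, fell with Cisplatin with a log2 fold change of −1.11 (SE 0.12, adjusted p = 2.0e-06), and DHRS7 rose by 1.00 (SE 0.07, adjusted p = 3.5e-08). DHRS2, a dicarbonyl reductase, was highest in the shControl libraries numbered 2, which held 97.1 CPM untreated and 71.9 CPM with Cisplatin, against 17.1 to 29.4 CPM in the other shControl libraries. The shRNF113A libraries had 22.8 to 25.8 CPM untreated and 5.61 to 7.88 CPM with Cisplatin. The log2 fold change upon depletion was −1.67 with all libraries (SE 0.44, adjusted p = 0.0074) and −0.76 without those numbered 2 (adjusted p = 0.0125). The untreated groups overlapped with and without these libraries, and the Cisplatin-treated groups did not. With Cisplatin it was −1.07 (SE 0.44, adjusted p = 0.0439) and −1.19 without those numbered 2 (adjusted p = 3.5e-04). That Cisplatin call was lost with 9 of the 12 libraries left out in turn (adjusted p 0.0689 to 0.172) and with scaling to library size (−0.98, adjusted p = 0.0686).

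**Figure D3:**
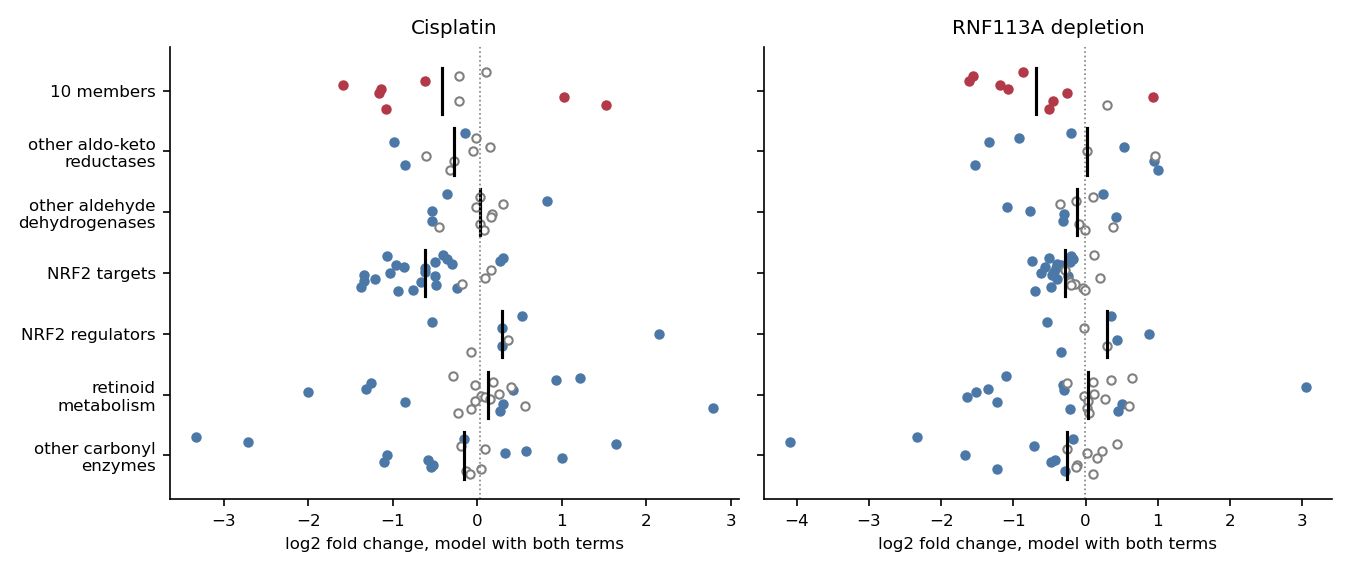
log2 fold changes (x axis) with Cisplatin and upon depletion, from the model with both terms, for the 10 genes and 6 related lists (y axis); each point is a gene, filled where the adjusted p was under 0.05, black bars are list medians and the dotted line is the median of all genes. The 10 genes had medians of −0.42 and −0.69, and the 25 NRF2 targets of −0.61 and −0.29.

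The gene nearest to each of the 10 over the 12 libraries was taken from 9778 others with a mean of at least 10 CPM, by the root mean square difference of centred log2 CPM. ALDH1A1 was nearest to CTPS2 (0.07), ALDH3A2 to AGFG2 (0.08), ALDH2 to TMEM245 (0.13), AKR1C3 to GALM (0.14), AKR1B1 to MORC4 (0.14), AKR1C2 to DOCK10 (0.16), ALDH3A1 to AHNAK (0.16), AKR1C1 to TSPAN5 (0.17), ALDH1A3 to SLC43A2 (0.20) and AKR1B10 to PNMA2 (0.28). No nearest gene was another of the 10.

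The study also asked about splicing and intron retention. The intronic share of the reads of a gene was the genic count less the exonic count, over the genic count. For ALDH2 the genic count was below the exonic count in every library, so it was not tested. The ratio of intronic to exonic reads was higher upon depletion in all 9 genes tested, in untreated cells (55.5% of 9871 genes were higher) and in Cisplatin-treated cells (82.4% of 10141). The median log2 change of the 9 was 0.68 against 0.47 over all genes in untreated cells, and 1.12 against 0.97 with Cisplatin. Most genes tested thus did the same, in untreated and in Cisplatin-treated cells.

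Among the AKR genes, AKR1B10 went from an intronic share of 3.29% ± 0.44 (SD, n = 3) to 5.88% ± 0.47 upon depletion in untreated cells (log2 change of the ratio 0.88, SE 0.12, adjusted p = 2.4e-05) and from 4.50% ± 1.52 to 9.46% ± 0.22 with Cisplatin (1.203, SE 0.22, adjusted p = 8.1e-05). AKR1C1 went from 8.10% ± 0.52 to 12.7% ± 0.17 (0.73, SE 0.12, adjusted p = 8.4e-05) and from 7.55% ± 1.68 to 12.5% ± 0.42 (0.82, SE 0.24, adjusted p = 0.0033). The change was smallest in ALDH1A1, from 2.10% ± 0.24 to 2.57% ± 0.20 in untreated cells (0.31, SE 0.12, adjusted p = 0.0315). It was largest with Cisplatin in ALDH3A2, from 8.10% ± 3.06 to 16.4% ± 0.69 (1.21, SE 0.26, adjusted p = 3.7e-04). In these genes a higher intronic share went with a lower level upon depletion except in ALDH1A3, which rose in level and went from 8.85% ± 1.43 to 13.5% ± 1.81 in untreated cells (0.67, SE 0.16, adjusted p = 0.0019), and in ALDH3A1 and, in untreated cells, ALDH1A1, whose levels did not pass the test.

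**Figure D4:**
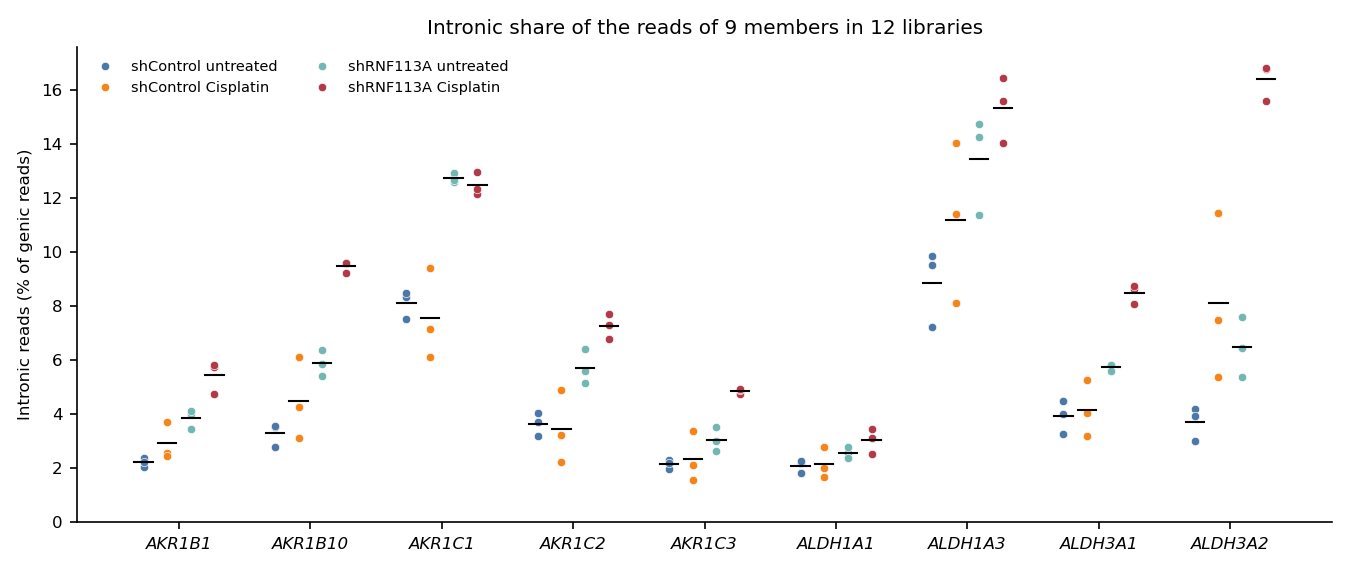
Intronic reads as a percent of all reads within the gene (y axis, from 0) for 9 genes (x axis) in the 4 conditions; points are libraries and bars are means of 3. The Cisplatin-treated shRNF113A libraries are highest in 8 of the 9 genes by their mean, and AKR1C1 is close to equal in both shRNF113A groups at 12.7% and 12.5%.

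Of 700 splicing events of these genes tested over 5 categories and 4 comparisons, 0 were called, for which mean inclusion levels had to lie 0.2 apart or more besides an adjusted p under 0.05 (edgeR, with a term for each library), against 0.128% of 390425 events of all genes. An unadjusted p under 0.05 was found for 76, for which no share of all events was taken. An adjusted p under 0.05 alone was found for 17 (1.37% of all events). DESeq2 was not run on the events. Of those 17, ALDH3A2 had 6, AKR1B1 4, AKR1C2 3, AKR1C1 2 and ALDH3A1 2.

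The largest of these shifts was in a cassette exon near the 3′ end of ALDH3A2 (chr17:19576464-19576588, 125 bases). It is shown because its 81 coding bases are followed by the stop codon TGA, so transcripts with it encode another end of the enzyme, where the known isoforms differ in their membrane anchor.
ALDH3A2 exon (chr17:19576439-19576544, GRCh37, plus strand): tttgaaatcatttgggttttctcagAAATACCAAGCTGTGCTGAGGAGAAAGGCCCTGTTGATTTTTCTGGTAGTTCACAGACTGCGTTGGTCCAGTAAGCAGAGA
Capitals are the coding bases of the exon, after the last 25 bases of the intron. Its inclusion level rose with Cisplatin in shRNF113A cells, from 8.83% ± 0.37 to 18.7% ± 1.58 (SD, n = 3, adjusted p = 2.7e-04). In shControl cells it went from 8.49% ± 0.81 to 17.1% ± 1.12, just short of the threshold (adjusted p = 0.0508). The same exon scored as an alternative to the exon before it passed in shControl cells, where the share of the earlier exon fell from 93.2% to 86.7% (adjusted p = 3.3e-08). Between shRNF113A and shControl cells its levels were 0.34 percentage points apart in untreated cells (adjusted p = 0.947) and 1.62 points apart with Cisplatin (adjusted p = 0.808). The exon had at least 323 reads of both forms in each library.

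Intron retention levels rose upon depletion in 3 of 6 retained introns of these genes in untreated cells (adjusted p under 0.05 alone, 14.0% of 4059 introns) and in 4 of 6 with Cisplatin (21.9% of 4153), all of them by under 5 percentage points. The intron of AKR1C1 at chr10:5009236-5010500 rose from 0.20% ± 0.04 to 0.40% ± 0.01 (SD, n = 3, adjusted p = 3.0e-04) in untreated cells and from 0.23% ± 0.11 to 0.48% ± 0.05 with Cisplatin (adjusted p = 0.0050). The intron of AKR1C2 at chr10:5041470-5042741 rose from 0.78% ± 0.07 to 1.27% ± 0.09 (adjusted p = 0.0019) and from 0.68% ± 0.29 to 1.45% ± 0.10 (adjusted p = 4.1e-04). In AKR1B1 the intron at chr7:134132134-134132731 rose from 1.30% ± 0.03 to 1.97% ± 0.21 in untreated cells (adjusted p = 0.0153). In ALDH3A1 the intron at chr17:19645944-19646544 rose from 2.76% ± 0.43 to 4.73% ± 0.27 with Cisplatin (adjusted p = 0.0093). Retention at these 4 introns was under 5% by the mean of every condition. The other 2 are segments that nearly all reads retained. In ALDH3A2 the one at chr17:19552157-19552247 went from 97.05% ± 0.49 to 100% upon depletion in Cisplatin-treated cells (adjusted p = 0.0381), on at least 142 reads in each library, and in AKR1B1 the one at chr7:134132134-134132212 went from 99.3% to 98.6% in untreated cells (adjusted p = 0.668).

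**Figure D5:**
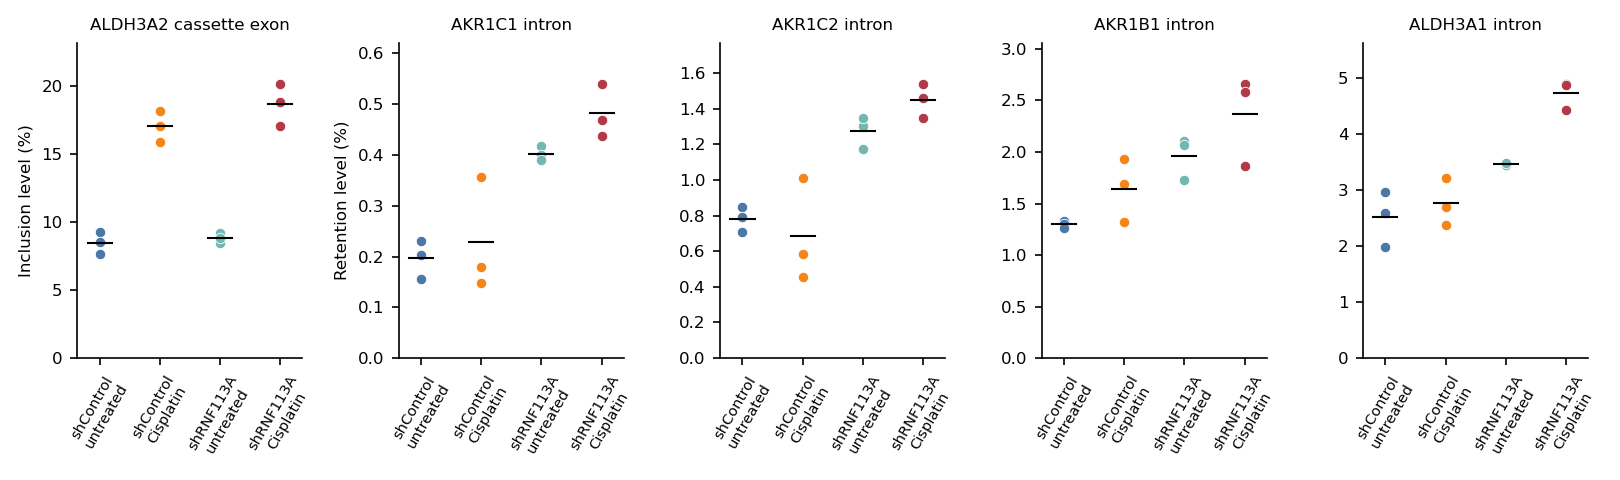
Inclusion level of the ALDH3A2 cassette exon and retention levels of introns of AKR1C1, AKR1C2, AKR1B1 and ALDH3A1 in percent (y axes, from 0, separate scales) in the 4 conditions (x axis); points are libraries and bars are means of 3. The exon separates by treatment, at 8.49% and 8.83% without and 17.1% and 18.7% with Cisplatin, and the intron of AKR1C1 separates by shRNA.

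Promoter sequence from RefSeq (GRCh38.p14, 250 bases before to 50 after the start) was found for 7 of the 10 genes, with 10 promoters in all. AKR1B10, ALDH2 and ALDH3A1 had no entry. The core of the antioxidant response element to which NRF2 binds, spelled TGACNNNGC and searched on both strands, occurred in 0 of these 10 windows and in 13.3% of 35116 promoters. This says only that these letters are not in these windows.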

How the data were processed

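RNA was sequenced from 12 libraries of A549 cells, 3 biological replicates in each of 4 conditions, as stranded TruSeq mRNA libraries read in paired ends. Per the labels and methods, the authors trimmed reads to 73 bases after discarding those that matched ribosomal, mitochondrial or transfer RNA, and aligned them to hg19 with STAR 2.5.2b. The deposited gene tables hold raw counts of uniquely aligned read pairs, made by the authors with STAR and not normalized. Exonic and genic counts of reads were deposited from HTSeq, which the authors ran on protein-coding genes of Gencode 19. The deposited splicing tables hold the reads counted on each form of an event, inclusion or skipping, and the effective lengths of both, from the authors' rMATS analysis. Their p-values, FDR and differences of inclusion level, the authors' own comparison, were not used. The order of libraries in these tables is not named, and a merged annotation was not used here.

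Counts on the strand of the gene were tested with edgeR 4.0.16 in R 4.3.3 (TMM scaling, filterByExpr, quasi-likelihood test). Main effects came from the model with terms for Cisplatin and depletion, and the interaction and effects within conditions from the model with 1 mean per condition. Calls required a p under 0.05 after Benjamini-Hochberg adjustment and a change of 2-fold or more, and counts without the fold limit are also given. Standard errors were derived from the test statistic, and intervals span 1.96 standard errors on either side. This normal multiple is smaller than that of the test, so the intervals are narrower than 95% intervals of the test. For the ALDH1A1 interaction the interval was −0.54 to −0.0041, though the unadjusted p of the edgeR test was 0.0696. Intronic against exonic reads (at least 10 of each in every library) and inclusion against skipping reads were tested in edgeR too, in a model with library terms. For events, calls required an adjusted p under 0.05 and a gap of 0.2 or more between mean levels. Tables were assembled with Python 3.11.15, pandas 2.3.3 and numpy 2.4.6, and figures drawn with matplotlib 3.10.9.

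On simulated data with 200 changed features each, 200, 199 and 200 of 4-fold changes were called for Cisplatin, depletion and the interaction among 15074 genes. For the intronic share 197 of 200 changes of 2.83-fold were called among 9871 genes. For skipped exons 135 of 200 changes of 4-fold among 55799 events passed an adjusted p under 0.05, without the limit on the gap in level. These were planted at exons of intermediate level with a read minimum, so they do not give the power for the events above. Unchanged features called were 0, 0 and 2 in the expression tests, 3 for the intronic share and 0 for skipped exons. The simulated counts had the same fixed spread in every feature and no paired or outlying libraries. For expression and the intronic share, changes were planted only in features with more reads. These results therefore do not give the power at the spread of the real libraries, which was wider in genes such as AKR1B10.

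The 10 genes and the related lists were chosen with earlier results of these data known. All 10 genes are named, with NFE2L2, KEAP1 and RNF113A. From each related list the 2 largest rises and 2 largest falls were named, out of the called ones that averaged 10 CPM or more, for Cisplatin and for depletion. The depth of 26220526 to 45721152 counted pairs gave every one of the 10 genes at least 1035 counts in each library, so the spread between replicates limits precision.

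Whether libraries with the same number deviate together was checked on 9779 genes, as the correlation of their departures from the mean of the condition. For shControl cells without and with Cisplatin r was 0.635, 0.733 and 0.48, so these were taken as pairs. For shRNF113A cells r was 0.412, −0.069 and 0.297, and over the other comparisons −0.204 to 0.137, so these were not. Genes are not independent, and the pairing rests on these values alone. Blocked values stand beside the calls they change.

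Alternatives were unstranded counts, HTSeq counts, library size or DESeq2 size factors as scaling, the DESeq2 1.42.0 Wald test, other filters, no fold limit, replicate blocks, other limits for introns and events, and fits that left out 1 library each.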

Additional observations from a re-analysis of the deposited data

Results flagged for a closer look

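ALDH1A3 stood out because its response differed between groups under a test of the difference itself. Its interaction of Cisplatin and depletion was −0.76 on the log2 scale (SE 0.15, adjusted p = 0.0206, edgeR quasi-likelihood test). Cisplatin raised it by 1.41 in shControl cells and by 0.65 in shRNF113A cells. Leaving out single libraries moved the interaction between −0.89 and −0.66, with adjusted p from 0.0097 to 0.0625. Groups of 3 libraries were not tested for single libraries far from the rest.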

How the results depend on the processing

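Counts of called genes kept within 1.5 times their value under every alternative but one. Without the fold limit, the genes changed by depletion went from 4 to 9 in the model with both terms, from 4 to 8 in untreated cells and from 4 to 8 in Cisplatin-treated cells, and those with an interaction from 0 to 1, because the rule was looser. Leaving out each library in turn gave 5 to 6 genes changed by Cisplatin, 4 to 6 in shControl cells and 4 to 5 in shRNF113A cells, and 4 changed by depletion, 3 to 6 in untreated and 4 in Cisplatin-treated cells. These counts move since several values lie near the 2-fold limit: AKR1B1, AKR1C2, AKR1C3, ALDH1A1, ALDH1A3 and ALDH3A2 each crossed it in at least 1 comparison with 1 library left out. The interaction count stayed at 0, the intronic counts at 8 to 9 in untreated and 7 to 9 in Cisplatin-treated cells, and the splicing count at 0. Of 1510 alternative values of single genes, 1485 kept their direction where called and their side of the threshold, 16 gained a call, 9 lost it and 0 reversed. With a replicate block for the pairing by number, the counts were 6 for Cisplatin, 4 for depletion, 6 in shControl cells, 5 in shRNF113A cells, and 4 and 4 for depletion in untreated and Cisplatin-treated cells, and the block changed no other call than those of ALDH2 in shControl cells and AKR1B1 in shRNF113A cells (0.24, adjusted p = 0.0414). Only for the shControl libraries did departures correlate across treatments at every replicate number. No block could be fitted to the splicing tables, which do not name their libraries. With library size in place of TMM scaling the median log2 fold change of all genes with Cisplatin went from 0.03 to 0.12.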
